A study of Mus musculus with 6 samples.

Results

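The genes described here encode subunits of canonical Polycomb repressive complex 1 (PRC1): the chromodomain proteins Cbx2, Cbx6, Cbx7 and Cbx8, the Polyhomeotic proteins Phc1, Phc2 and Phc3, and the RING finger proteins Bmi1 and Pcgf2. They were taken by symbol from a table of 22933 mouse genes, and all 9 were found in it. RNA came from mouse embryonic stem cells with floxed Ezh2 alleles (Ezh2 fl/fl) in both groups, grown on gelatin with leukaemia inhibitory factor. The tamoxifen group (labelled Ezh2 KO) was given 800 nM 4-hydroxytamoxifen for 96 h to delete Ezh2, and its RNA was taken 4 days after treatment (n = 3 libraries). The untreated cells (labelled Ezh2 wild type) received no tamoxifen (n = 3). The recombinase, the number of clones and whether replicates were separate cultures are not given in the sources used here, so the p-values measure the spread between these libraries, which may be technical. An effect of the drug itself and an effect of the deletion cannot be told apart in this design.

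Ezh2 is the main methyltransferase of Polycomb repressive complex 2 (PRC2) and methylates lysine 27 of histone H3. Canonical PRC1 is recruited by this mark: a Cbx protein reads the methylated lysine through its chromodomain, a Phc protein links complexes to each other through its SAM domain, and Bmi1 or Pcgf2 pairs with the ubiquitin ligase Ring1 or Rnf2. In embryonic stem cells Cbx7 is known as the main Cbx subunit, and Cbx2 and Cbx8 are known to gain in share when the cells differentiate. The question here is how the RNAs of the readers of the mark stood in cells treated to remove its writer.

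The deposited values are normalized signals, and each matches a formula in whole numbers. From it a count, called recovered reads here, was inferred for each gene. No source used here states that it is the authors' read count, and all values given in recovered reads rest on it. Library sums were 3847167, 2333978 and 5111706 in tamoxifen replicates 1 to 3, against 3855124, 5689696 and 2678122 in untreated replicates 1 to 3. The 10 most abundant genes took 20.2% to 32.4% of the reads in tamoxifen libraries and 22.0% to 36.7% in untreated libraries. Ezh2 itself averaged 2475 ± 190 in tamoxifen libraries and 3756 ± 361 in untreated libraries (normalized value, SD, n = 3 each), so its RNA was not absent, and values over the whole gene do not check the deleted exons. Its log2 fold change was -0.60, with a limma adjusted p of 0.157. It was -0.43 on recovered reads scaled by trimmed means and -0.13 on those scaled by library totals alone (limma adjusted p 0.615 and 0.987). With library totals alone the median of all genes tested was itself 0.25, and Ezh2 lay below it. In RPM (recovered reads scaled to 1000000 per library) all tamoxifen values of Ezh2 lay within the untreated range of 67.6 to 180. Markers of embryonic stem cells, all 8 with reads in the table, summed to 1159 to 1572 RPM in tamoxifen libraries and 920 to 1581 in untreated libraries. Markers of primitive endoderm, 10 of 10 with reads, summed to 1229 to 1712 RPM in tamoxifen libraries and 439 to 789 in untreated libraries. Fibroblast markers summed to 596 to 853 RPM in tamoxifen libraries and 334 to 495 in untreated libraries. Of these 10 markers, 9 had reads, only 6 had at least 10 on average, and Lum was at 0. Trophoblast markers summed to 131 to 150 RPM after tamoxifen and 52.3 to 102 without it. All 7 had reads, but only 4 had at least 10 on average, so the sum does not speak for the whole list. In these bulk samples, fewer cells of a type and less RNA per cell cannot be told apart.

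None of the 9 canonical PRC1 genes passed the test after tamoxifen, and the members did not share a direction. Bmi1 and Phc2 stood higher after tamoxifen by 0.70 and 0.64 on the log2 scale, while Phc1 stood lower by 0.31 and Cbx7 by 0.19. Cbx2 and Pcgf2 differed by 0.05 and -0.03. Cbx8 and Cbx6 had too few reads for a test. The limma fit was made on log2(value + 1) over the 11842 genes that had at least 10 recovered reads on average, which 7 of the 9 members reached. A gene was called where its p, adjusted by the Benjamini-Hochberg method, was under 0.05. This held for 0 of the 7 members tested and 0.127% of all genes tested, 13 genes higher and 2 lower after tamoxifen. Those 15 calls dropped to between 0 and 4 when any 1 library was left out. At an unadjusted p under 0.05 the count was 2 of the 7 members (Bmi1 and Phc2, both higher), against 12.0% of all genes tested in either direction and 6.85% higher. That of Phc2 was above 0.05 without tamoxifen replicate 3 (0.0742), untreated replicate 1 (0.0560) or untreated replicate 2 (0.0549), and that of Phc1 was 0.0259 without untreated replicate 2 (limma, unadjusted). Fitted on recovered reads scaled by trimmed means (TMM), again 0 members were called, against 0.0422% of all genes. The unadjusted p was then under 0.05 for Bmi1, Phc2 and Phc1, against 8.67% of all genes. With trends of GC content and length also removed, 0 members were called against 0.235% of genes, and the same 3 members had an unadjusted p under 0.05 against 12.7%. The median log2 fold change of the 7 members was 0.05, and that of all genes tested was -0.01.

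**Figure D1:**
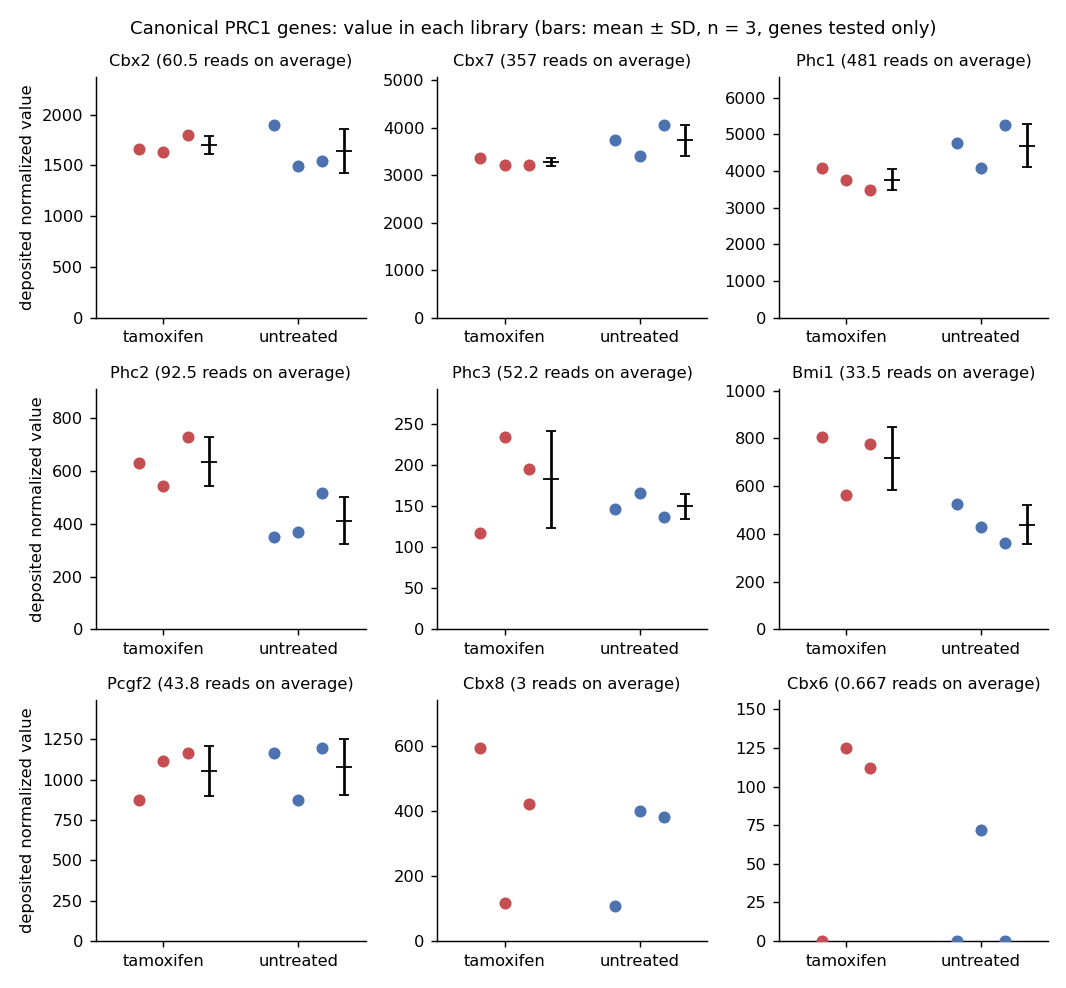
Deposited normalized value (vertical axis, from 0) of each canonical PRC1 gene in the 3 tamoxifen libraries (red points, left) and the 3 untreated libraries (blue points, right), with the mean ± SD beside each group for the 7 genes tested. The tamoxifen points of Bmi1 and Phc2 all lie above the untreated points, those of Cbx7 and Phc1 all lie below, and the groups of the other 5 genes overlap.

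The members differed widely in level. Levels between genes were compared as RPM per kilobase of merged exons, averaged over all 6 libraries. Phc1 was the most abundant at 23.2, followed by Cbx7 at 13.9. Cbx2 at 3.51, Phc2 at 3.32, Pcgf2 at 3.12 and Bmi1 at 2.13 came next, and each overlapped its neighbour in this order over the libraries. Phc3 stood at 0.785, and its range of 0.363 to 1.37 overlapped that of Bmi1 (0.470 to 3.59). Cbx8 at 0.200 and Cbx6 at 0.0156 were lowest, and neither range overlapped that of the gene above it. Phc1 (18.3 to 31.9) and Cbx7 (11.1 to 15.8) did not overlap each other or any other member.

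Start sites were compared in RefSeq promoter windows on GRCm38.p6, of which 8 of the 9 members had at least 1. The 250 bases before each start were read, which gave 10 windows because Phc2 has 3 starts. The windows of Pcgf2, Phc1, Cbx6, Cbx7 and the later starts of Phc2 lie inside the genes as annotated here. That of Cbx8 lies partly inside. For Pcgf2, Phc1, Cbx6 and Cbx7 the sequence before the outer end of the gene was thus not read. The motif CACGTG, the palindromic E-box bound by MYC, MAX and USF proteins, was found once each in the windows of Bmi1, Pcgf2, Cbx6, Cbx8, Phc3 and the first start of Phc2, and not in those of Cbx7 and Phc1. It was in 6.02% of all 32851 windows, and in 9.73% of the 10109 CpG-rich ones (GC content over 50% and a CpG ratio of observed to expected over 0.6). The E2F motifs TTTGGCGC and TTTCCCGC and the motif TATAAA, searched on both strands, were in none of the 10 member windows, against 1.30% and 12.4% of all windows. A match describes the letters only and does not show that a factor binds. The windows of the Bmi1 and Pcgf2 pair are shown because their family shares differed most between the groups in percentage points. Those of Phc2 and Phc1 are shown because these genes stood apart in opposite directions. Capitals mark CACGTG.
Bmi1, chr2:18676768-18677017, plus strand: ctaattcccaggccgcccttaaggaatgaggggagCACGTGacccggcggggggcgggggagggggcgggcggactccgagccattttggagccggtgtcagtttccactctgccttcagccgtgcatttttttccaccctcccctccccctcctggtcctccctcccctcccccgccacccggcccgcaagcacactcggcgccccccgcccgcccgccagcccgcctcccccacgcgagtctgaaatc
Pcgf2, chr11:97699649-97699898, minus strand: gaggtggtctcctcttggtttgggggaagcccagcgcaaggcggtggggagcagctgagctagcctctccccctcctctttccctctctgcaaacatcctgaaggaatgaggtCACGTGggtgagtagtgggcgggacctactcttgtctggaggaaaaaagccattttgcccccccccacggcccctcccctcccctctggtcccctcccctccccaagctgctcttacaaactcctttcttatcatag
Phc2, chr4:128654452-128654701, plus strand: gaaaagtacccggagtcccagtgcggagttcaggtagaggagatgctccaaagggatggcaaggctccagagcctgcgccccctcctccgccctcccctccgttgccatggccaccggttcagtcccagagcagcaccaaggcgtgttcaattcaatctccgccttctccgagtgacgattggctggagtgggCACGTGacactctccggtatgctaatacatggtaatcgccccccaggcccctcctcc
Phc1, chr6:122340228-122340477, minus strand: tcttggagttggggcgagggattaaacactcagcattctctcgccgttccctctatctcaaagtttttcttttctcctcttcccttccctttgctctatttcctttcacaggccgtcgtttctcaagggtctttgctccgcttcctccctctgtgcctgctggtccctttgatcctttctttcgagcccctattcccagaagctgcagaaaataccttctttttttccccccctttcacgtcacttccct

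CpG content differed between the windows shown. The Bmi1 window held 21 CpG sites and had a GC content of 70.4%, while the Pcgf2 window held 5 CpG sites at 59.6% GC. The Bmi1 window lies before its gene and the Pcgf2 window inside its gene, so they are not alike in position. The E-box begins 215 bases before the start of Bmi1 and 137 bases before that of Pcgf2. The 3 starts of Phc2 held 13, 1 and 34 CpG sites in genomic order, and the Phc1 window held 8. The median over all windows was 6 CpG sites. Which start of Phc2 gave the reads cannot be read from values per gene.

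Among the chromodomain readers, Cbx7 made up most of the RNA in both groups. Cbx7 (ENSMUSG00000053411, chromosome 15, 79915807 to 79971119, minus strand of GRCm38) had normalized values of 3367, 3221 and 3221 in tamoxifen libraries, against 3737, 3406 and 4047 in untreated libraries. The highest tamoxifen value was just under the lowest untreated one. The log2 difference of -0.19 had a 95% interval of -0.47 to 0.10 and a limma adjusted p of 0.598. It turned to 0.031 on reads scaled by library totals alone, where the median of all genes was 0.25. In RPM, Cbx7 stood at 72.3, 102 and 99.0 in tamoxifen libraries and at 97.8, 96.5 and 72.8 in untreated libraries, and these ranges overlapped. Groups that did not overlap in deposited value made up 18.4% of all genes tested, 9.49% with tamoxifen higher, and 4 of the 7 members (Cbx7 and Phc1 lower, Phc2 and Bmi1 higher). In RPM the groups did not overlap for 8.89% of all genes tested, and among the members for Phc2 and Bmi1. Exons of Cbx7 share 100 bases with Apobec3 on the opposite strand. Whether the counting used strand is not given in the sources used here.

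Cbx2, which also compacts nucleosomes, differed little between the groups. Cbx2 (ENSMUSG00000025577, chromosome 11, 119022962 to 119031270, plus strand) had normalized values of 1662, 1631 and 1799 in tamoxifen libraries, against 1896, 1498 and 1543 in untreated libraries. The untreated values spanned all of the tamoxifen values. Cbx2 was thus 0.05 higher on the log2 scale, and the 95% interval of -0.28 to 0.38 (limma adjusted p 0.915) spans 0.824-fold to 1.30-fold. The sign turned on recovered reads with TMM scaling, where the value was -0.14, and without untreated replicate 2, where it was -0.012. On recovered reads scaled by library totals alone it was 0.15, below the median of all genes there, which was 0.25.

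Cbx8 and Cbx6 were near the limit of detection. Cbx8 (ENSMUSG00000025578), whose gene lies 5.03 kb from Cbx2 on chromosome 11, had 5, 1 and 5 recovered reads in tamoxifen libraries and 1, 4 and 2 in untreated libraries. Its normalized values were 592, 116 and 421 after tamoxifen and 107, 400 and 381 without it, so the groups overlapped. Summed over libraries, 11 reads against 7 gave a ratio of reads per total of 1.70, with an exact 95% interval from 0.602 to 5.17 that covers counting error only. Cbx6 (ENSMUSG00000089715, chromosome 15, 81.1 kb from Cbx7) had 0, 1 and 2 reads in tamoxifen libraries and 0, 1 and 0 in untreated libraries. The ratio for Cbx6 was 3.25 with an interval from 0.261 to 170, so no difference was detectable at this depth. Exons of Cbx6 share 563 bases with Npcd, a gene on the same strand that is listed at 0 in all 6 libraries.

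The balance among Cbx2, Cbx6, Cbx7 and Cbx8 differed by no more than the spread between libraries on recovered reads. Cbx7 took 78.0% ± 2.06 of the summed reads per kilobase of these 4 genes in tamoxifen libraries and 79.8% ± 1.35 in untreated libraries (SD, n = 3 each). The share of Cbx2 was 20.4% ± 1.70 after tamoxifen and 19.2% ± 1.73 without it. The two-sided exact permutation p was 0.3 for Cbx7 and 0.6 for Cbx2, or 0.45 and 0.6 after adjustment over the 9 shares compared in the Cbx, Phc and PCGF families. Cbx6 and Cbx8 together filled the few percent that remained. On deposited values, here and below not divided by length, the share of Cbx7 differed by -5.04 percentage points (exact p 0.1). There Cbx2 differed by 2.42 percentage points, Cbx8 by 1.57 and Cbx6 by 1.05. Cbx8 and Cbx6 had at most 5 and 2 reads in a library. The 4 genes had 224 to 646 reads in a library.

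The Phc genes, which encode the oligomerizing subunits, did not share a direction. Phc1 (ENSMUSG00000040669, chromosome 6, 122317731 to 122340561, minus strand) had normalized values of 4068, 3746 and 3484 in tamoxifen libraries, against 4749, 4068 and 5244 in untreated libraries. Tamoxifen replicate 1 lay less than 1 unit below untreated replicate 2, so the groups barely separated. Phc1 was lower by a log2 value of -0.31, and its 95% interval ran between -0.64 and 0.02 (limma adjusted p 0.438). It was -0.53 on recovered reads with TMM scaling (limma adjusted p 0.447), over 1.5 times as large. Scaled by library totals alone it was -0.23 (limma adjusted p 0.975), where the median of all genes was 0.25.

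Phc2 (ENSMUSG00000028796, chromosome 4, 128654702 to 128752881, plus strand) went the other way. Its normalized values were 633, 545 and 730 in tamoxifen libraries, against 351, 370 and 516 in untreated libraries. Every tamoxifen value exceeded every untreated value, on 43 to 191 reads in a library. The log2 fold change was 0.64 ± 0.21 (SE), with a 95% interval from 0.14 to 1.13 and a limma adjusted p of 0.307. In RPM, Phc2 stood at 23.4, 30.0 and 37.4 in tamoxifen libraries and at 17.6, 16.3 and 16.1 in untreated libraries. The untreated libraries were close to each other on that scale, and the tamoxifen libraries were spread. The summed endoderm, fibroblast and trophoblast markers given above were also higher in every tamoxifen library than in any untreated one, and their part in the values of Phc2 and Bmi1 was not tested.

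Phc3 (ENSMUSG00000037652, chromosome 3, 30899371 to 30969415, minus strand), the least abundant Phc gene per length, had normalized values of 117, 234 and 195 in tamoxifen libraries, against 147, 166 and 136 in untreated libraries. Tamoxifen replicate 1 was the lowest of all 6 libraries and the other tamoxifen libraries were the highest. The log2 difference of 0.23 had a wide 95% interval, -0.50 to 0.96, and a limma adjusted p of 0.814. Without tamoxifen replicate 1 it was 0.52, and without tamoxifen replicate 2 it was 0.021. The SD of its log2 values within groups was 0.38, against a median of 0.26 over all genes tested and 0.09 for Cbx7.

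Within the Phc family, Phc1 took 82.9%, 81.4% and 76.4% of the reads per kilobase in tamoxifen libraries, against 90.3%, 89.5% and 88.1% in untreated libraries. Phc2 took 15.0%, 14.1% and 19.6% in tamoxifen libraries, against 7.06%, 8.64% and 10.2% in untreated libraries. The groups did not overlap for either gene. The mean share of Phc2 was 7.59 percentage points higher after tamoxifen and the difference for Phc1 was -9.07 percentage points. The two-sided exact permutation p was 0.1 for each, the smallest that 3 against 3 libraries allow, and 0.225 after adjustment over the 9 shares. On deposited values the share of Phc2 differed by 6.09 percentage points, with the same exact p of 0.1.

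**Figure D2:**
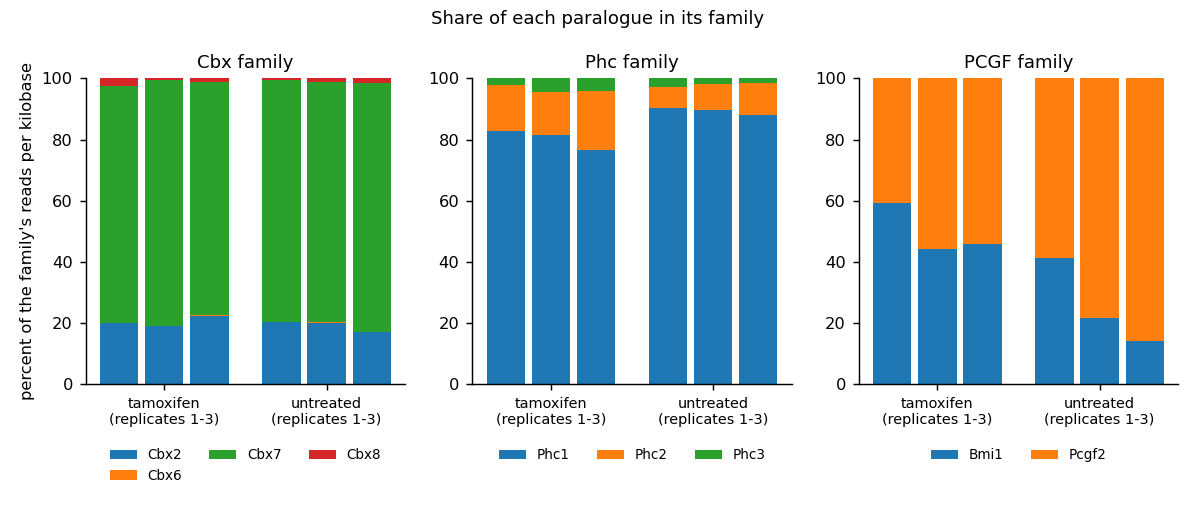
Percent of the summed recovered reads per kilobase of the genes drawn (vertical axis, 0 to 100) taken by each paralogue in the 3 tamoxifen libraries (left bars) and the 3 untreated libraries (right bars), for Cbx2, Cbx6, Cbx7 and Cbx8, for the Phc genes and for Bmi1 with Pcgf2. Cbx7 and Phc1 fill most of their bars in all 6 libraries, and Bmi1 takes 44.2% to 59.3% of the PCGF bar in tamoxifen libraries and 14.1% to 41.1% in untreated libraries.

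Bmi1 had the largest difference of the 7 members tested when all 6 libraries were used. Without tamoxifen replicate 1 it was 0.61 against 0.63 for Phc2, and without untreated replicate 3 it was 0.58 against 0.81 for Phc2. Bmi1 (ENSMUSG00000026739, chromosome 2, 18677018 to 18686629, plus strand) encodes a RING finger partner of the PRC1 ubiquitin ligases and is known for repressing the Cdkn2a locus in stem cells. Its normalized values were 807, 563 and 778 in tamoxifen libraries, against 525, 427 and 364 in untreated libraries. Every tamoxifen value exceeded every untreated value. The log2 fold change was 0.70 ± 0.22 (SE), or 1.63-fold, with a 95% interval from 0.20 to 1.21 on the log2 scale and a limma adjusted p of 0.271. The two-sided exact permutation p was 0.1.

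The size for Bmi1 depended on the processing, and few reads lie behind it. It had 46, 25 and 73 recovered reads in tamoxifen libraries, against 33, 19 and 5 in untreated libraries. In RPM these came to 12.0, 10.7 and 14.3 in tamoxifen libraries, against 8.56, 3.34 and 1.87 in untreated libraries. On recovered reads with TMM scaling the log2 fold change was 1.29 (limma adjusted p 0.354), and it was 1.23 once trends of GC and length were removed (limma adjusted p 0.143). Bmi1 transcripts have a GC content of 40.2%, the lowest of the 9 members, and the part of GC content in the smaller deposited difference was not tested.

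Pcgf2 (ENSMUSG00000018537, chromosome 11, 97688823 to 97700497, minus strand), also called Mel18, takes the same place in the complex as Bmi1. Its normalized values were 874, 1116 and 1167 in tamoxifen libraries, against 1166, 875 and 1194 in untreated libraries. The groups overlapped across nearly their whole range. Pcgf2 differed by -0.03 on the log2 scale, and the 95% interval of -0.47 to 0.40 (limma adjusted p 0.960) spans 0.723-fold to 1.32-fold. The sign turned without tamoxifen replicate 1, untreated replicate 1 or untreated replicate 3, where the values were 0.096, 0.031 and 0.047.

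Bmi1 took a higher share of the pair in tamoxifen libraries, without overlap between the groups. Bmi1 made up 59.3%, 44.2% and 45.7% of the reads per kilobase of the pair in tamoxifen libraries, against 41.1%, 21.7% and 14.1% in untreated libraries. The lowest tamoxifen share was above the highest untreated one. The means were 49.7% ± 8.33 after tamoxifen and 25.6% ± 13.9 without it (SD, n = 3 each), a difference of 24.1 percentage points. The two-sided exact permutation p was 0.1, or 0.225 adjusted over the 9 shares. Shares within a family are complementary, and those of Bmi1 and Pcgf2 are the same test counted separately. The adjusted p is thus not that of 9 separate tests. On deposited values the difference was 11.5 percentage points (exact p 0.1). The pair had 32 to 150 reads in a library.

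**Figure D3:**
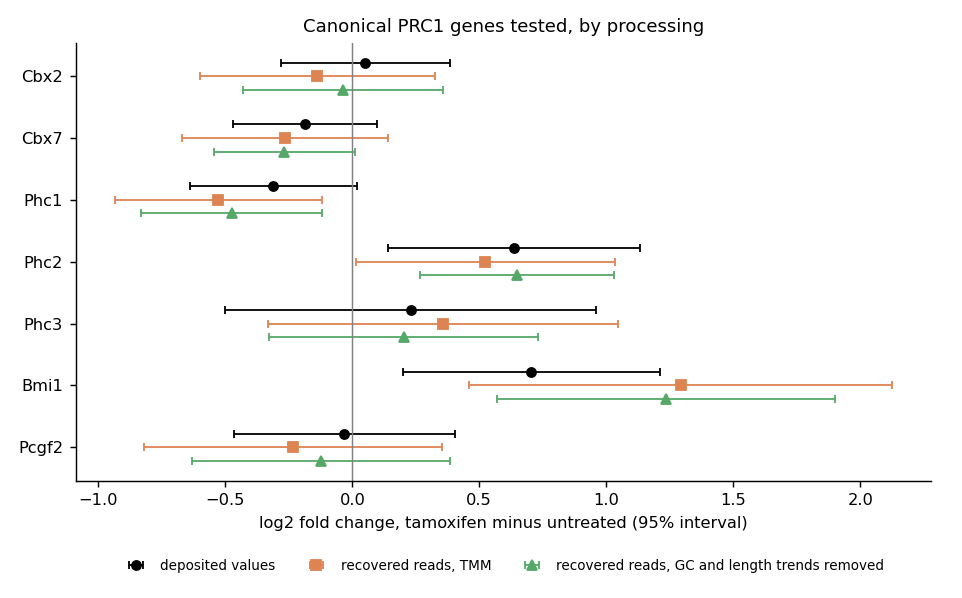
Log2 fold change, tamoxifen minus untreated (horizontal axis), with its 95% limma interval for the 7 canonical PRC1 genes tested, from deposited values (black circles), recovered reads with TMM scaling (orange squares) and the same reads after removing trends of GC and length (green triangles). The intervals of Bmi1 and Phc2 lie above 0 in all 3, before adjustment for the genes tested, and the largest shift between them is that of Bmi1 from 0.70 to 1.29.

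The canonical genes were then set beside the rest of the Polycomb system. Of 22 other PRC1 genes, 20 reached the read minimum. Of these, 12 were higher and 8 lower after tamoxifen (48.3% of all genes tested were higher). The list had 0 called and a median log2 fold change of 0.07. Those of smallest p were Pcgf3 (0.51), which defines a variant PRC1, Scmh1 (0.70), a sex-comb protein of canonical PRC1, Pcgf6 (-0.43), which defines another variant complex, and Skp1a (-3.19). Skp1a, a ubiquitin ligase adaptor, had 1, 2 and 2 reads in tamoxifen libraries and 1, 123 and 34 in untreated libraries. Its value thus rested on untreated replicates 2 and 3, and it reached the read minimum only through them. It was called lower by limma when untreated replicate 1 was left out, and that call supports nothing. The ligases that pair with Bmi1 and Pcgf2 stood at 0.14 (Rnf2) and -0.05 (Ring1) on the log2 scale.

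Of 14 PRC2 genes listed, 13 were in the table and 12 were tested, 6 higher and 6 lower, with 0 called and a median of -0.06. Apart from Ezh2, those of smallest p were the DNA-binding cofactor Aebp2 (0.65), the paralogue Ezh1 (-0.64) and the histone chaperone Rbbp7 (-0.36). Of 40 developmental regulators known as Polycomb targets, 6 were tested, 5 higher and 1 lower (48.3% of all genes tested were higher), with 0 called. Their median was 1.33, and it was 0.86 without untreated replicate 3, 0.86 over the 31 targets whose values averaged at least 10 and 0.46 over 39 with no filter. Those of smallest p were Meis1 (2.56, limma adjusted p 0.0541), Gata4 (1.43), Gata6 (1.24) and Sox17 (3.38, limma adjusted p 0.514, with 1 read in untreated replicate 3). The targets were listed with earlier results of these libraries known, so their direction is no independent evidence. The other 34 targets had fewer reads, and together they came to 19.2 to 25.3 RPM in tamoxifen libraries and 7.84 to 20.2 in untreated libraries, which overlapped. Some targets entered the medians above through 1 group alone. Sox17, with 8, 20 and 1 reads in untreated libraries, reached the read minimum only through the tamoxifen libraries. Without the read minimum, Dlx3, Wnt10b and Foxf2 entered with 0 reads in every untreated library. Other targets entered with 0 in every tamoxifen library. The medians thus give no support for a direction.

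**Figure D4:**
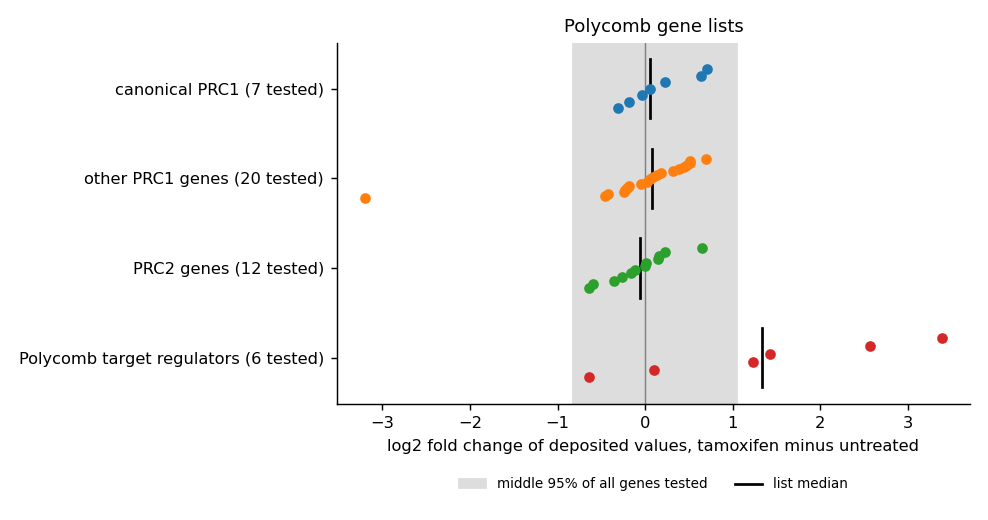
Log2 fold change of deposited values, tamoxifen minus untreated (horizontal axis), for each tested gene (points) of the canonical PRC1 genes, the other PRC1 genes, the PRC2 genes and the Polycomb target regulators, with list medians as black bars. The grey band holds the middle 95% of all 11842 genes tested, from -0.82 to 1.05, and all 7 canonical PRC1 genes lie inside it.

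The gene most like each member across the 6 libraries was found by the smallest root mean square difference of centred log2 values, among genes with at least 100 reads on average. For Bmi1 it was Aldh4a1, at a difference of 0.06, and for Phc2 it was Tspan14 at 0.09. Phc1 was nearest to Helb (0.07), Phc3 to Atp2a2 (0.07), Pcgf2 to Fkbp1a (0.06), Cbx7 to Elob (0.04) and Cbx2 to Pim1 (0.03). Each was the nearest of 5435 or 5436 candidates, so a close match is a description of these libraries.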

How the data were processed

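Total RNA of 6 libraries was depleted of ribosomal RNA and sequenced from directional libraries, per the labels' protocols. The authors deposited 1 normalized signal per gene and library. TopHat2, bedtools, DESeq2 and the build mm9 are named in the submitters' processing notes. The annotation, strand setting and counting rule are not given in the sources used here.

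Each of the 100305 deposited values above 0 has the form 9.73 × k × (m + 0.1) / (k + 0.1) with whole numbers k and m, and k was taken as the recovered read count, an inference that no source used here states. A single solution existed for 98.8% of them, and the others were settled by the ratio of m to k in the gene's other libraries or in the library. Values of a gene with few reads are thus coarse, whatever their size.

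Log2(value + 1) was fitted with limma 3.58.1 in R 4.3.3 (expression trend, tamoxifen minus untreated) on the 11842 genes with at least 10 recovered reads on average, with Benjamini-Hochberg adjustment over all of them. The limma step was also run on simulated data with the same dispersion for all genes, and the outcome of that run is not reported here. Family shares used recovered reads per kilobase of the members alone and two-sided exact permutation tests. GENCODE vM21 (GRCm38) supplied symbols, lengths and coordinates through the Ensembl gene identifiers, and 20273 of 22933 genes matched. No GRCm38 coordinate was compared with mm9. Promoter sequences are credited to RefSeq. Python 3.11.15 was used for the other steps.

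The members and lists were chosen with earlier results of these data known. The genes named are the 9 members, Ezh2, up to 4 genes of smallest p per other list and the nearest gene to each member. Rnf2 and Ring1 were named after their values were seen, as partners of the members, Npcd and Apobec3 for their overlap, and Dlx3, Wnt10b and Foxf2 because a looser filter called them. One further gene that the rule names is not reported here.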

Additional observations from a re-analysis of the deposited data

How the results depend on the processing

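No canonical PRC1 gene was called under any alternative run. Over all of them Bmi1 stayed between 0.58 and 1.55, Phc2 between 0.52 and 0.82, Phc3 between 0.02 and 0.64 and Phc1 between -0.53 and -0.23 on the log2 scale. Library totals alone moved the median of all genes to 0.25, and Cbx7 (0.031) and Pcgf2 (0.054) changed sign there while lying below that median. Cbx2 turned to -0.14 on recovered reads with TMM and to -0.036 with GC and length trends removed. Leaving out 1 library at a time gave -0.012 to 0.16 for Cbx2 and -0.18 to 0.10 for Pcgf2, and the family shares of the members kept their direction in every alternative run.

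Against 15 genes called over all genes tested, 6 were called with a pseudocount of 10. The count was 34 with a mean value of at least 10 in place of the read minimum and 52 without a filter. On recovered reads, 5 genes were called with TMM, 13 with library totals alone and 27 with GC and length trends removed. Leaving out 1 library at a time gave 0 to 4 calls, with 4 where untreated replicate 1 or 2 was left out and 0 elsewhere. Equal replicate numbers did not deviate together (r across genes -0.04 to 0.01), and the fit with the replicate number as a block called 0 genes. Among Polycomb targets, 3 genes were called with either looser filter (Dlx3, Wnt10b and Foxf2), each with 1 to 8 reads in a tamoxifen library and 0 in every untreated one, so they passed the filter through the tamoxifen group alone and support nothing. Meis1 was called on library totals or with GC and length trends removed (1 gene each). Other PRC1 genes called numbered 0 to 1 with 1 library left out, the call being Skp1a without untreated replicate 1. Skp1a passed the filter through the untreated group alone, so that call supports nothing either. Bmi1 and Pcgf2 fell under a minimum of 50 reads and have no value there. Depth limits Cbx6 and Cbx8 most.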
